A study of Oryza sativa Japonica Group with 6 samples.

Results

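Cytokinin is switched on and removed by a small set of enzymes, and 8 rice genes for these steps were followed in young panicles, of 42189 genes listed in the deposited values. They were chosen by locus identifier. *LOG* encodes the enzyme that releases active cytokinin from its nucleotide precursor, and 7 *OsCKX* genes encode cytokinin oxidase/dehydrogenases, which degrade it. The measurements came from RNA-seq of young panicles collected before heading, with 3 libraries of 187R and 3 libraries of NIL-*hfr131*, all marked as biological replicates and grown without treatment. 187R is an *indica* restorer line with the *HFR131* allele, although the sample records give the organism as the Japonica Group. NIL-*hfr131* is a near-isogenic line in the 187R background that carries *hfr131*, an *Oryza longistaminata* allele of the brassinosteroid receptor kinase gene *OsBRI1* with a shortened promoter and a substitution in the kinase domain, within a wild-rice segment of the long arm of that gene's chromosome, chromosome 1. A difference between the lines can therefore come from any gene in that fragment. How many panicles or plants made up each library is not given in the sources used here.

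Free cytokinins promote cell division and keep meristems active, so their local supply is tied to how many branches and spikelets a panicle forms. In rice, loss of *LOG* shortens meristem activity and gives small panicles. Low activity of *OsCKX2*, the gene behind the grain number locus *Gn1a*, leads to more grains per panicle. The *OsCKX* family members differ in the tissues where they act, and the rice literature has linked *OsCKX4* to crown root formation, *OsCKX9* to the strigolactone response and *OsCKX11* to leaf senescence and grain number.

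Levels are in TPM, in which a gene's reads are corrected for its length and scaled to a fixed total, so that genes can be compared. Each library summed to 1000000, so read depth is unknown, and error is judged by how far replicates differ. NIL-*hfr131* replicate 3 stood apart, with Pearson correlations across genes of 0.916 to 0.937 with the other libraries, which had 0.982 to 0.991 among themselves. Results that rest on it are given with and without it. *OsBRI1* was at 63.5, 58.7 and 66.7 TPM in 187R and at 68.7, 71.5 and 117 TPM in NIL-*hfr131*, which does not show the allele of a library. Of 7 marker loci listed for the anther wall, all 7 had a mean of at least 1 TPM and their summed level was 2206 to 2506 TPM in 187R and 2805 to 3525 TPM in NIL-*hfr131*. The 7 meiotic loci summed to 56.7 to 57.3 TPM in 187R and 43.2 to 65.7 TPM in NIL-*hfr131*. The value of 65.7 TPM was that of NIL-*hfr131* replicate 3. Without that library the lines did not overlap, with the meiotic sums of NIL-*hfr131* below those of all 187R libraries. The 6 inflorescence and floral meristem loci summed to 643 to 677 TPM in 187R and 651 to 655 TPM in NIL-*hfr131*. Only 3 of them reached a mean of 1 TPM, and among the other 3, LOC_Os07g47330 was listed at 0 in 5 libraries. Most of the sum was LOC_Os03g11614, at 541 to 580 TPM in 187R and 547 to 572 TPM in NIL-*hfr131*. LOC_Os08g39890 was lower in every NIL-*hfr131* library than in every 187R library, as were 9.96% of all tested genes. The lines overlapped in the other tested loci of this list. The 6 green leaf loci summed to 1436 to 1559 TPM in 187R and 918 to 1539 TPM in NIL-*hfr131*. The value of 918 TPM was that of NIL-*hfr131* replicate 3. LOC_Os01g52240 was listed at 0 in all libraries. At an adjusted *P* under 0.05, 1 of 7 anther wall loci and 1 of 5 tested green leaf loci were higher in NIL-*hfr131*. In either direction, 0.307% of all tested genes passed. The loci were LOC_Os11g37280 (454 ± 48.9 TPM in 187R and 1321 ± 95.7 TPM in NIL-*hfr131*, SD) and LOC_Os12g19470 (9.44 ± 0.554 and 30.9 ± 4.47 TPM). The lines overlapped in the other tested green leaf loci, and the median log2 fold change of the 5 was -0.14. The gap in the anther wall sums came from LOC_Os11g37280, since the other 6 loci summed to 1792 to 1997 TPM in 187R and 1595 to 2144 TPM in NIL-*hfr131*, which overlap. The median log2 fold change of the 7 loci was -0.08, and LOC_Os02g02820 was lower in every NIL-*hfr131* library than in every 187R library. The part of tissue makeup in the results was not tested. In bulk tissue, fewer cells of a type and less RNA per cell cannot be told apart.

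Of the 8 cytokinin genes, *OsCKX11*, *LOG*, *OsCKX3* and *OsCKX5* had a mean level of at least 1 TPM and entered the test between lines, which covered 21531 genes. The rest, *OsCKX9*, *OsCKX2*, *OsCKX4* and *OsCKX1*, had means of 0.826, 0.378, 0.226 and 0.172 TPM. *OsCKX11* was the most abundant in all 6 libraries, and *OsCKX9* ranked 5 in all 6. In 187R, *LOG* came next after *OsCKX11*, followed by *OsCKX3* and *OsCKX5*, in every library. In NIL-*hfr131*, *OsCKX5* was above *OsCKX3* in every library. The neighbours in this order were close, with *OsCKX3* at 8.69 ± 0.244 and *OsCKX5* at 6.99 ± 1.12 TPM in 187R, and at 7.90 ± 1.28 and 9.33 ± 0.443 TPM in NIL-*hfr131* (SD, n = 3). The levels of *OsCKX2*, *OsCKX4* and *OsCKX1* exchanged ranks between libraries.

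**Figure D1:**
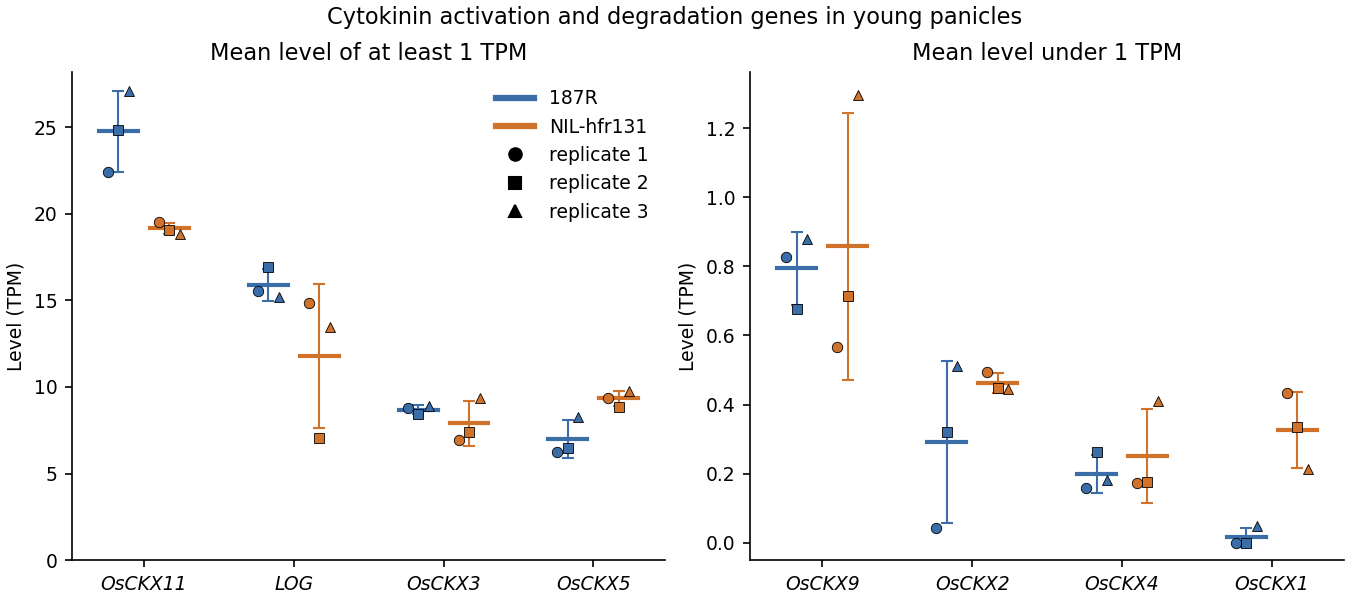
Level in TPM (vertical axes, different scales) of the 8 genes in each library, with 187R in blue and NIL-hfr131 in orange; points are libraries, horizontal lines are means and error bars are SD over 3 libraries. OsCKX11 and LOG are lower in all NIL-hfr131 libraries and OsCKX5 and OsCKX1 are higher, while LOG in NIL-hfr131 replicate 2, at 7.04 TPM, lies far below the other 5 libraries.

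None of the 4 tested genes passed an adjusted *P* under 0.05 (0 of 4, limma with Benjamini-Hochberg adjustment over all tested genes), where 0.307% of all tested genes passed, and 0 of 4 passed without NIL-*hfr131* replicate 3, where 1.8% of genes did. At an unadjusted *P* under 0.05, *OsCKX11* and *OsCKX5* passed, and 8.36% of all tested genes did. The libraries of the lines did not overlap for *LOG*, *OsCKX11* and *OsCKX5*, against 18.5% of all tested genes. *OsCKX5* was the higher in NIL-*hfr131*, as were 8.59% of tested genes, and *LOG* and *OsCKX11* were lower, as were 9.96%. The median log2 fold change of the 4 genes was -0.24, and that of all tested genes was 0.05. Fold changes are on the log2(TPM + 1) scale, where a positive value is a higher level in NIL-*hfr131*, and tests were two-sided.

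*LOG* (LOC_Os01g40630), the activating enzyme, was at 15.5, 16.9 and 15.2 TPM in 187R replicates 1, 2 and 3 and at 14.9, 7.04 and 13.4 TPM in NIL-*hfr131* replicates 1, 2 and 3. All NIL-*hfr131* libraries were below all 187R libraries, but replicates 1 and 3 were close to them, with 0.300 TPM between the highest NIL-*hfr131* library and the lowest 187R library. Its log2 fold change was -0.46, with SE the standard error of the fit (SE 0.26, 95% confidence interval -1.08 to 0.16, limma adjusted p = 0.694). Most of this difference came from NIL-*hfr131* replicate 2, without which the log2 fold change was -0.16 (limma adjusted p = 0.673). In that library *LOG* was at 46.4% of its mean in the other 5. In NIL-*hfr131* replicate 2, 38 of the 21531 tested genes were lower by more than 1 on the log2 scale than their mean in the other 5 libraries. *LOG*, at -1.01, was just past this cut, and the same count was not made for other libraries. Of all tested genes, 11.3% had their lowest level in NIL-*hfr131* replicate 2. Without NIL-*hfr131* replicate 3, the log2 fold change of *LOG* was -0.58 (limma adjusted p = 0.354). With the libraries rescaled by median-of-ratios factors or quantile normalization, the lines overlapped for *LOG*.

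*OsCKX11* (LOC_Os08g35860, chromosome 8) was at 22.4, 24.8 and 27.1 TPM in 187R compared with 19.5, 19.1 and 18.9 TPM in NIL-*hfr131*. The NIL-*hfr131* libraries were alike and all below the 187R libraries, with a gap of 2.86 TPM between the lines. Means were 24.8 ± 2.35 TPM in 187R and 19.1 ± 0.339 TPM in NIL-*hfr131* (SD, n = 3). Between the lines the log2 fold change came to -0.35 (SE 0.12, 95% confidence interval -0.64 to -0.06, limma adjusted p = 0.509), and the unadjusted *P* of the same model was 0.0241. NIL-*hfr131* replicate 3 did not set this value, which was -0.34 without it (limma adjusted p = 0.183). The direction was lower under each of 13 other settings, with log2 fold changes of -0.44 to -0.29.

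*OsCKX5* (LOC_Os01g56810, chromosome 1) differed in the opposite direction. Its level was 6.23, 6.46 and 8.27 TPM in 187R and 9.38, 8.87 and 9.75 TPM in NIL-*hfr131*. All NIL-*hfr131* libraries were above all 187R libraries, of which replicate 3 came nearest, 0.600 TPM below the lowest NIL-*hfr131* library. A log2 fold change of 0.38 was obtained (SE 0.15, 95% confidence interval 0.02 to 0.74, limma adjusted p = 0.575), with an unadjusted *P* of 0.0411 in the same model. It was 0.35 without NIL-*hfr131* replicate 3 (limma adjusted p = 0.286) and 0.49 without 187R replicate 3 (limma adjusted p = 0.869). With quantile normalization the log2 fold change was 0.29 and the lines overlapped.

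*OsCKX3* (LOC_Os10g34230, chromosome 10) was at 8.77, 8.42 and 8.89 TPM in 187R compared with 6.93, 7.42 and 9.35 TPM in NIL-*hfr131*. The lines overlapped because NIL-*hfr131* replicate 3 was the highest of the 6 libraries, whereas replicates 1 and 2 were the lowest. For *OsCKX3* the log2 fold change reached -0.13 (SE 0.15, 95% confidence interval -0.49 to 0.23, limma adjusted p = 0.727). With that library left out the value was -0.25 (limma adjusted p = 0.306) and the lines no longer overlapped, as they did not in 32.6% of all tested genes in that comparison. The lines also did not overlap for *OsCKX3* under quantile normalization or median-of-ratios factors, with *OsCKX3* lower in NIL-*hfr131*.

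**Figure D2:**
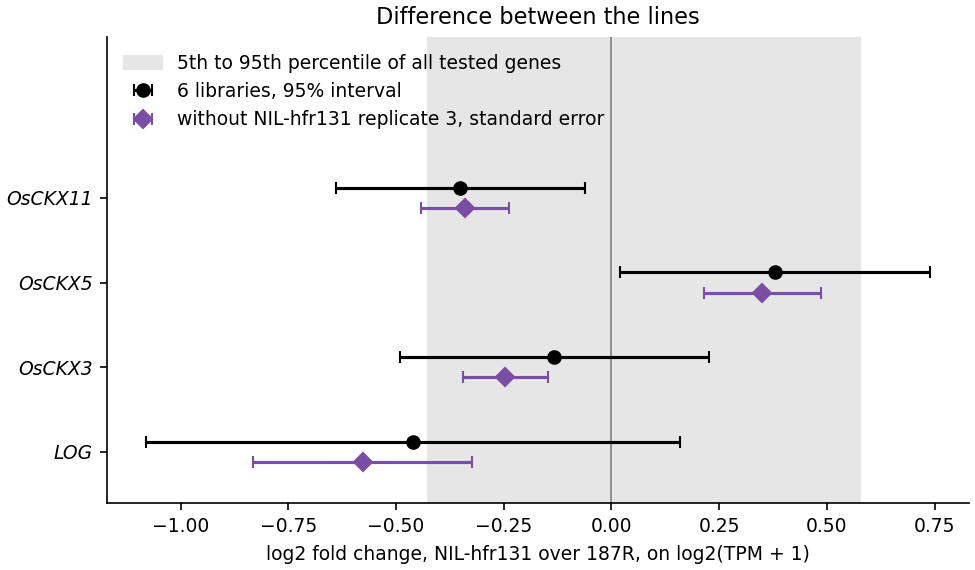
Log2 fold change of NIL-hfr131 over 187R on the log2(TPM + 1) scale (horizontal axis) for the 4 tested genes, from all 6 libraries with the 95% confidence interval (black circles) and without NIL-hfr131 replicate 3 with the standard error (purple diamonds); the grey band is the 5th to 95th percentile of all tested genes. OsCKX5 at 0.38 is to the right of 0 and OsCKX11 at -0.35 to the left, both inside the band, while LOG at -0.46 has the widest interval.

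The 4 weakly expressed genes were below the minimum mean of 1 TPM, and their tests come from the fit without a filter on low values, in which 0 of the 8 genes and 0.229% of all genes passed an adjusted *P* under 0.05. On the log2(TPM + 1) scale the added 1 shrinks changes at such levels. The fold changes of these 4 genes are thus not comparable in size with those of the more abundant genes. *OsCKX1* (LOC_Os01g09260) was listed at 0, 0 and 0.0477 TPM in 187R and at 0.432, 0.336 and 0.214 TPM in NIL-*hfr131*. It was thus close to the lower limit of the values in 187R and above it in every NIL-*hfr131* library, which did not overlap with 187R. Such separation was seen in 10.4% of the genes under the filter with any value above 0. Without the filter, *OsCKX1* had a log2 fold change of 0.38 (SE 0.07, limma adjusted p = 0.188), and 0.45 without NIL-*hfr131* replicate 3 (limma adjusted p = 0.0551, a combination of settings chosen after seeing the data). Whether the listed zeros are absence or failed estimates is unknown, and no ratio of the lines is given for this gene.

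*OsCKX2* (LOC_Os01g10110), the *Gn1a* gene, was at 0.0444, 0.322 and 0.512 TPM in 187R compared with 0.496, 0.447 and 0.444 TPM in NIL-*hfr131*. The lines overlapped, and 187R replicate 1 alone was low. A log2 fold change of 0.19 was found (95% confidence interval -0.14 to 0.52, limma adjusted p = 0.738). *OsCKX4* (LOC_Os01g71310) was at 0.158, 0.263 and 0.181 TPM in 187R and at 0.172, 0.175 and 0.409 TPM in NIL-*hfr131*, where replicate 3 was the highest. The log2 fold change of *OsCKX4* was 0.06, and -0.03 without that library, with adjusted *P* values of 0.809 and 0.886 (limma). *OsCKX9* (LOC_Os05g31040) was at 0.827, 0.676 and 0.878 TPM in 187R and at 0.566, 0.714 and 1.30 TPM in NIL-*hfr131*. Here too NIL-*hfr131* replicate 3 was the highest library, and the log2 fold change of 0.03 became -0.13 without it, with adjusted *P* values of 0.943 and 0.658 (limma). The direction of both genes was thus set by NIL-*hfr131* replicate 3.

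The 7 *OsCKX* genes were then summed to describe the pool of transcripts for cytokinin degradation. The sum was 38.4, 41.0 and 45.8 TPM in 187R and 37.5, 37.0 and 40.3 TPM in NIL-*hfr131*, so the lines overlapped. The makeup of this pool was then described. It restates the levels above, where *OsCKX11* and *OsCKX5* differed in opposite directions, and is not a further test. *OsCKX11* held 58.3% to 60.6% of the pool in 187R and 46.8% to 52.1% in NIL-*hfr131*. *OsCKX5* held 15.8% to 18.0% in 187R and 23.9% to 25.0% in NIL-*hfr131*. The share of *OsCKX3* overlapped, at 19.4% to 22.8% and 18.5% to 23.2%. The 4 weak genes together held 2.68% to 3.53% in 187R and 4.44% to 5.86% in NIL-*hfr131*, so *OsCKX11*, *OsCKX5* and *OsCKX3* made up nearly the whole pool in both lines. The level of *LOG* relative to the sum was 0.331 to 0.414 in 187R and 0.190 to 0.397 in NIL-*hfr131*, with the lowest value again in NIL-*hfr131* replicate 2. These are sums of transcript levels and do not measure enzyme activity.

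**Figure D3:**
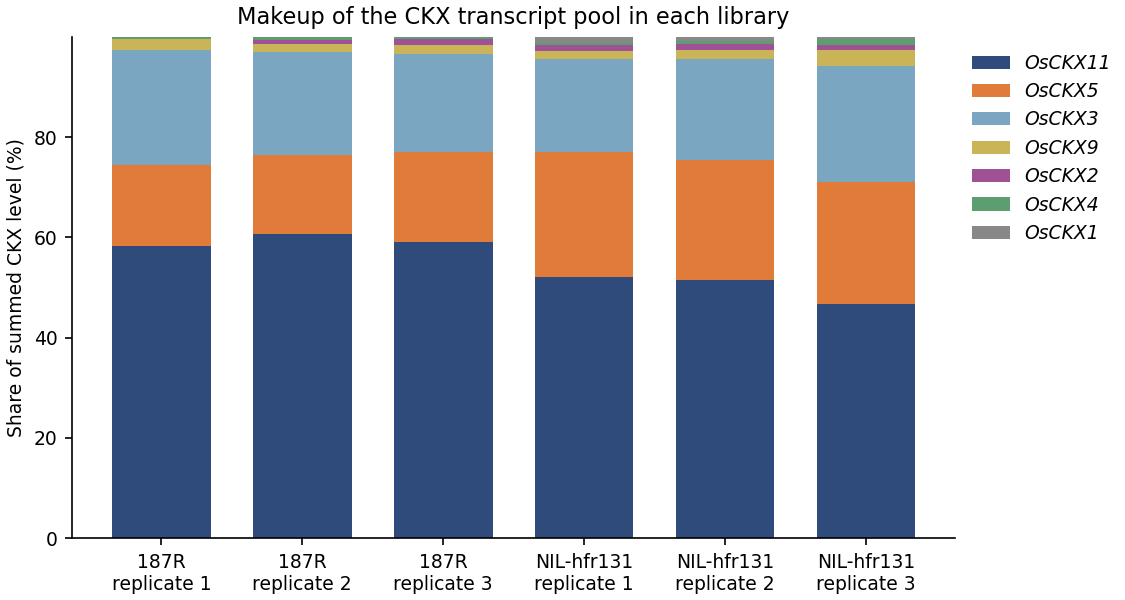
Share of the summed TPM of the 7 OsCKX genes (vertical axis, percent) that each gene held in each of the 6 libraries (bars). The OsCKX11 segment is 58.3% to 60.6% in the 187R libraries and 46.8% to 52.1% in the NIL-hfr131 libraries, and the OsCKX5 segment is 15.8% to 18.0% and 23.9% to 25.0%.

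Ratios of genes within a library do not change when the library is rescaled by a common factor. Quantile normalization can change them and was not run for the ratios. The ratios were compared for the 6 pairs of the 4 tested genes, a comparison chosen after the levels were seen. The ratio of *OsCKX5* to *OsCKX11* was -1.85, -1.94 and -1.71 on the log2 scale in 187R and -1.06, -1.10 and -0.95 in NIL-*hfr131*. The difference was 0.79, with SDs of 0.12 in 187R and 0.079 in NIL-*hfr131*, for a pair already seen to differ in opposite directions. The ratio of *OsCKX3* to *OsCKX5* was 0.49, 0.38 and 0.10 in 187R and -0.44, -0.26 and -0.06 in NIL-*hfr131*, so *OsCKX3* was the more abundant in all 187R libraries and *OsCKX5* in all NIL-*hfr131* libraries. The ratio of *LOG* to *OsCKX5* also did not overlap, at 0.88 to 1.39 in 187R and -0.33 to 0.67 in NIL-*hfr131*. For each of these 3 pairs the two-sided exact permutation test gave p = 0.1, the smallest that 3 against 3 libraries allow (adjusted p = 0.2 over the 6 pairs). All 3 pairs include *OsCKX5*, so they are not independent, and the share of separated pairs among other genes was not computed. In the other three pairs the lines overlapped, with exact permutation p values of 0.3 to 1. Without NIL-*hfr131* replicate 3, the differences of the 3 separated pairs were 0.75, -0.67 and -1.03, in the order given above.

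**Figure D4:**
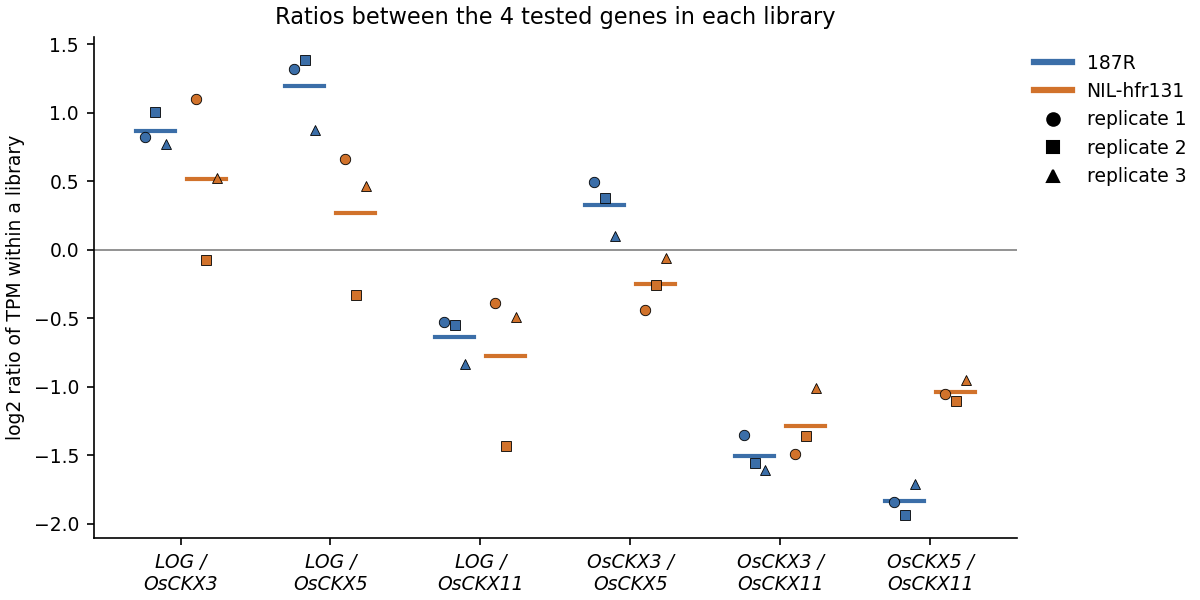
Log2 ratio of the TPM values of 2 genes within each library (vertical axis) for the 6 pairs of the 4 tested genes, with 187R in blue and NIL-hfr131 in orange; points are libraries and horizontal lines are means over 3 libraries. The lines are separate for OsCKX5 over OsCKX11 (mean -1.83 in 187R and -1.04 in NIL-hfr131), OsCKX3 over OsCKX5 (0.33 and -0.25) and LOG over OsCKX5 (1.19 and 0.27).

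Of the 8 genes, 5 lie on chromosome 1, as does *OsBRI1*, and locus numbers rise along each chromosome. The locus number of *OsCKX5* is 4760 above that of *OsBRI1*, and that of *LOG* is 11420 below it. *OsCKX4* is 19260 above, and *OsCKX2* and *OsCKX1* are 41940 and 42790 below. Among the 10 tested genes nearest to *OsCKX5*, 5 on each side, 0 passed an adjusted or an unadjusted *P* under 0.05 (limma) and the lines did not overlap in 1, where 18.5% of all tested genes did not. The same counts were found for the 10 neighbours of *LOG*. Around *OsCKX1*, *OsCKX2* and *OsCKX4*, the lines did not overlap in 2, 2 and 3 of 10 neighbours. In the same order, 0, 2 and 2 of them had an unadjusted *P* under 0.05, against 8.36% of all tested genes, and 0 passed the adjusted threshold. Which of these loci lie in the introgressed fragment, and whether the wild-rice allele changes how reads are assigned, was not tested.

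For each tested gene, the gene with the most similar profile over the 6 libraries was taken by the smallest root mean square difference of centred log2(TPM + 1) values. For *LOG* it was LOC_Os11g01530, at 0.089, with 60.7, 65.8 and 60.7 TPM in 187R and 60.3, 24.9 and 54.3 TPM in NIL-*hfr131*. It shared with *LOG* the low level in NIL-*hfr131* replicate 2. The nearest genes were LOC_Os07g22350 for *OsCKX3* (0.023), LOC_Os02g36140 for *OsCKX5* (0.040) and LOC_Os02g57280 for *OsCKX11* (0.038). These were the closest of 21531 genes over few libraries, and nothing about shared function follows.

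The rest of the cytokinin pathway was described from a list of 44 loci for synthesis, activation, degradation and signalling, of which 43 were listed in the values and 32 were tested. The list was compiled from general knowledge of rice gene families, and the deposited values do not name these loci. At an adjusted *P* under 0.05, 0 of the 32 passed in either direction, and at an unadjusted *P* under 0.05, 1 was higher and 3 were lower in NIL-*hfr131* (limma), compared with 4.05% and 4.31% of all tested genes. The lines did not overlap in 9 of them (28.1%, against 18.5% of all tested genes), with 3 higher and 6 lower, and the median log2 fold change was -0.07.

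Of the 4 loci with an unadjusted *P* under 0.05, 3 belong to synthesis and activation, and they are named here after their values were seen. These steps make up much of the list, so the count does not show that they differ more than others. Among the 32 tested loci, 10 are in the *LOG*-like family, 3 are isopentenyltransferases and 1 is a cytokinin hydroxylase. LOC_Os05g47840, listed as an isopentenyltransferase, which makes the cytokinin precursor, was at 2.59, 1.71 and 2.23 TPM in 187R and 5.28, 3.68 and 4.63 TPM in NIL-*hfr131* (log2 fold change 0.80, SE 0.19, limma adjusted p = 0.259). All NIL-*hfr131* libraries of this locus were above those of 187R. Of the 3 tested isopentenyltransferases, 2 were separated, both higher in NIL-*hfr131*, and the median log2 fold change was 0.45. The other of these 2, LOC_Os06g51350, was at 4.15 to 4.71 TPM in 187R and 5.43 to 8.61 TPM in NIL-*hfr131*. Its log2 fold change of 0.45 became 0.26 without NIL-*hfr131* replicate 3. The lines overlapped for LOC_Os01g73760, the most abundant of the 3, with a log2 fold change of -0.05. LOC_Os03g49050, listed in the *LOG*-like family, was at 6.63, 7.57 and 7.93 TPM in 187R and 5.16, 3.83 and 3.71 TPM in NIL-*hfr131* (log2 fold change -0.69, SE 0.17, limma adjusted p = 0.278). LOC_Os08g33300, listed as a cytokinin hydroxylase that converts precursors to the *trans*-zeatin form, was at 2.26 to 3.16 TPM in 187R and 1.48 to 2.12 TPM in NIL-*hfr131*, a log2 fold change of -0.42 (limma adjusted p = 0.590). The 10 *LOG*-like loci as a group were near 0, with a median log2 fold change of -0.07 and 1 locus separated in each direction. Their summed level was 153 to 164 TPM in 187R and 144 to 152 TPM in NIL-*hfr131*, several times that of *LOG* itself. Much of this sum was LOC_Os10g33900, the most abundant of them, at 68.3 to 81.2 TPM in 187R and 61.4 to 73.8 TPM in NIL-*hfr131*. The lines overlapped for that locus. Of 4 *OsCKX* loci listed outside the 8 genes, 3 had values, all under 1 TPM, and 1 of these was at 0 in all libraries. The sums of those with values were 0.280 to 0.612 TPM in 187R and 0.086 to 0.206 TPM in NIL-*hfr131*.

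In signalling, the 4 receptor kinase loci and 4 type-B response regulators, the transcription factors of the pathway, had 0 of 8 separated between the lines, where 18.5% of all tested genes were. Their sums were high in NIL-*hfr131* replicate 3 alone, at 138 TPM for the receptors, against 57.4 to 69.2 TPM in the other libraries, and at 147 TPM for the type-B regulators, against 72.5 to 82.2 TPM. Both phosphotransfer loci, which carry the signal to the nucleus, were lower in every NIL-*hfr131* library than in every 187R library, with sums of 122 to 134 TPM in NIL-*hfr131* and 140 to 156 TPM in 187R. Of the 8 tested type-A response regulators, genes that cytokinin induces rapidly and that dampen its signal, 2 were separated, both lower in NIL-*hfr131*, and the median log2 fold change was -0.18. Among all tested genes, 9.96% were separated and lower in NIL-*hfr131*. The larger difference was in LOC_Os04g36070, at 33.6, 37.4 and 33.6 TPM in 187R and 29.6, 26.6 and 20.7 TPM in NIL-*hfr131* (log2 fold change -0.44, limma adjusted p = 0.519). Without NIL-*hfr131* replicate 3, its log2 fold change was -0.30 (limma adjusted p = 0.197). None of these loci passed the adjusted threshold, so none is shown to differ.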

How the data were processed

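Total RNA of young panicles was made into cDNA libraries and sequenced on an MGISEQ-2000 platform. The authors deposited TPM values for 42189 genes in 6 libraries, and all value columns were used. The methods name FPKM, but each library summed to 1000000. The aligner, genome build, annotation and filters are not given in the sources used here, so near-identical copies could have shared reads. TPM keeps no depth, and no counting error is given.

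From the deposited TPM, values of genes averaging 1 or more over the 6 libraries were transformed to log2(TPM + 1). limma 3.58.1 in R 4.3.3 then tested NIL-*hfr131* against 187R (line as the only term, variance prior following the mean level), with Benjamini-Hochberg adjustment over all tested genes and a threshold of 0.05. The methods state no test. Pair ratios were compared by exact permutation with scipy 1.17.1, and figures were drawn with matplotlib 3.10.9. Sample titles named 187R for all libraries, with WT or mutant and the replicate. The mutant was taken to be NIL-*hfr131*, the line that the methods name beside 187R.

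The 8 genes, the lists and the tests were chosen with earlier results of these data known. The text names the 8 genes, *OsBRI1* and the nearest profile of each tested gene, and others where stated. Names of the 8 genes each matched 1 entry of the RefSeq rice gene table on the same chromosome, whereas 0 of the 42189 identifiers of the deposited values matched it, so no coordinates are given. Alternatives were a constant prior, a replicate block, removal of single libraries, quantile normalization or median-of-ratios factors, 0.1 as the pseudocount, and a filter at 5 TPM or none.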

Additional observations from a re-analysis of the deposited data

How the results depend on the processing

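The count of cytokinin genes with an adjusted *P* under 0.05 was 0 under every alternative run (limma), and the log2 fold changes of the 4 tested genes kept their direction in all 52 combinations of gene and setting. The lowest adjusted *P* among these was 0.183. Under the alternatives, the log2 fold change of *LOG* ranged from -0.65 to -0.16, of *OsCKX3* from -0.25 to -0.05, of *OsCKX5* from 0.29 to 0.49 and of *OsCKX11* from -0.44 to -0.29, and the unadjusted *P* was under 0.05 in 1, 1, 6 and 9 of 13 settings. Among the genes that passed the filter, the lines did not overlap in 3 of 4 in the 6 libraries as deposited, against 18.5% of all tested genes. Under the alternatives with a filter the count was 2 to 4. The 4 came without NIL-*hfr131* replicate 3, where 32.6% of all tested genes did not overlap. Shares for the other alternatives are not given, so their counts cannot be set against all genes. Without a filter, *OsCKX1* was added, giving 4 of 8, where 10.4% of the genes under the filter with any value above 0 were separated. Over all genes, 66 passed the adjusted threshold, and 13 to 384 did when single libraries were removed, with 384 without NIL-*hfr131* replicate 3. With the replicate number as a block, 16 genes passed. Same-numbered libraries of the lines had correlations of -0.21, 0.06 and 0.09 of their deviations from the line means. Not every library correlated best with its own number. No pairing by number was thus seen, but 3 libraries per line are too few to exclude one. Leaving out each library changed the difference in summed *OsCKX* level from -3.46 TPM to between -5.12 and -1.41 TPM, the last without 187R replicate 3. Values under 1 TPM, without known depth, limit what can be said of *OsCKX1*, *OsCKX2*, *OsCKX4* and *OsCKX9*.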
